A study of Mus musculus with 8 samples.

Results

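ATF4 and 9 genes of the amino acid stress response were followed in mouse embryonic fibroblasts with and without Cbx2. The 10 members were taken by symbol from the authors' deposited comparison, all 10 were found, and the table lists 17441 genes. They are Atf4 itself, the stress genes Ddit3, Trib3, Sesn2 and Chac1, the amino acid synthesis genes Asns, Psat1 and Phgdh, and the mitochondrial folate enzyme genes Shmt2 and Mthfd2. The fibroblasts were primary cells of embryonic day 18 at passage 2. They came from wild-type littermates or from Cbx2-/- embryos, which carry a targeted deletion of the polycomb chromatin gene Cbx2. Each genotype had 2 RNA libraries made from 200000 cells each, with about 4.62 Gb of sequence per library. Accessibility (ATAC-seq) libraries of the same cells are not analysed here. Whether the 2 libraries of each genotype are from different embryos is not in the labels. The p-values rest on the spread between these libraries, which may be technical and which the authors' test estimates partly across genes.

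When amino acids run short, or unfolded proteins gather in the endoplasmic reticulum (ER), kinases phosphorylate the translation factor eIF2. General protein synthesis then slows while the Atf4 mRNA is translated more, through upstream open reading frames. ATF4 binds DNA together with C/EBP proteins and switches on genes for amino acid synthesis, uptake and tRNA charging. Because ATF4 is set largely at translation, the level of its mRNA is not a measure of its protein. ER stress also acts through the ATF6 and IRE1 arms, whose best known targets are the ER chaperones.

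The binding site for ATF4 with C/EBP proteins has the core TGATGNAA, and 3 of the 10 members held it in the RefSeq promoter (GRCm38.p6, from 250 bases before to 50 after the gene start). These were Asns, Chac1 and Trib3. Among all 32851 RefSeq promoters 3.97% held the core on either strand, and among all genes with a promoter 4.51% did. No member's promoter held an E-box (CACGTG, present in 7.15% of promoters) or the ER stress element (0.119%), both searched on both strands. The stretches below are shown because they hold the cores of members, in capitals. Phgdh is shown because it was the member that passed the test, and its promoter held no core. Asns is at chr6:7693210-7693309 (minus strand), with the core at positions -23 to -16 from the gene start. Chac1 is at chr2:119350999-119351098 (plus strand), with the core on the opposite strand at -193 to -186. Trib3 is at chr2:152344032-152344130 (minus strand), with the core on the opposite strand at 15 to 22. Phgdh is at chr3:98339970-98340069 (minus strand).
Asns: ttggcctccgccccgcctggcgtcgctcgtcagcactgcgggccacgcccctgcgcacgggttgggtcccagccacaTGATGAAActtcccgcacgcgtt
Chac1: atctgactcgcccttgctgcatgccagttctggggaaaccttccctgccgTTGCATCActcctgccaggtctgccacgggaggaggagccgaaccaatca
Trib3: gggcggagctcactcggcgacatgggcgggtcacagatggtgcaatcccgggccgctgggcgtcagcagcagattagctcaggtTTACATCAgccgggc
Phgdh: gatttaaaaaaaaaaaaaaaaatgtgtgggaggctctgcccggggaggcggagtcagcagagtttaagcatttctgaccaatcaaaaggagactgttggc
A match of these letters describes the window and is not a measured binding site.

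The deposited table gives 1 value per genotype, but reads per library could be read back from it for all 10 members. The libraries are called W1 and W2 (wild type) and K1 and K2 (knockout), since which of them is replicate 1 is not known. A scaled read is a read count divided by the library's size factor, which was 1.01 for W1, 0.935 for W2, 1.03 for K1 and 1.03 for K2. Fold changes and p-values were taken as the authors deposited them, and their test was DESeq2. Standard errors are those implied by the deposited p. These fold changes are pulled toward 0, slightly for the members and more for genes with few reads. Chac1 was -0.257 as deposited and -0.263 from its recovered reads, and the macrophage marker Adgre1 was 1.63 and 2.47. A gene was called where its DESeq2 p, adjusted over all genes by Benjamini-Hochberg, was under 0.05. The targeted gene Cbx2 had 324 and 355 reads in W1 and W2 and 27 and 25 reads in K1 and K2, so the libraries match their labels.

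Of the 10 members 1 rose in knockout and none fell. The member that rose was Phgdh, and its change was small. Over all genes 7.78% were called in the authors' deposited table, 3.48% higher and 4.30% lower in knockout. Among the 6750 genes whose mean lay in the range of the members (363 to 4964 scaled reads), 11.0% were called. A count of 1 in 10 is near the background. The median log2 fold change of the members was 0.070, beside 0.0036 for all genes, and 7 of the 10 had a positive sign. Summed over the 10 members, scaled reads were 25099 in W1, 24866 in W2, 26096 in K1 and 25472 in K2. Both knockout sums were above both wild-type sums, but not once Phgdh was left out, when they were 20908 in W1, 20734 in W2, 21418 in K1 and 20904 in K2.

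**Figure D1:**
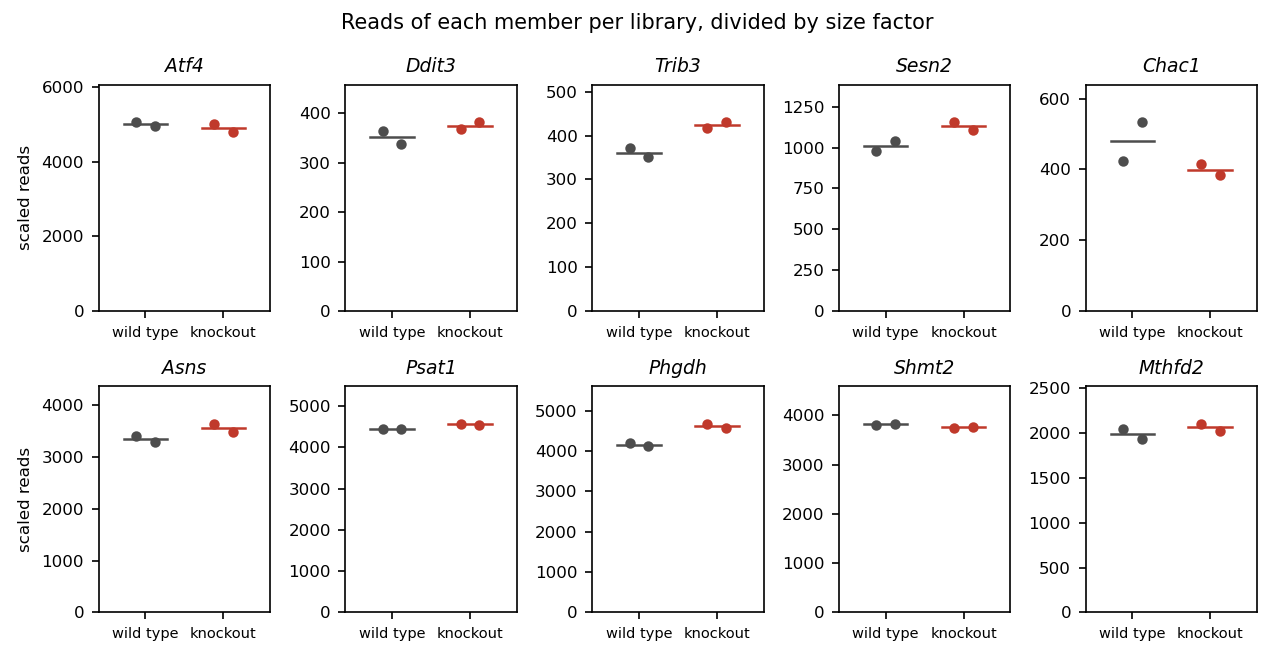
Scaled reads (reads divided by the library's size factor) of the 10 members, with 1 point per library, 2 libraries per genotype, and a line at the mean. Every vertical axis starts at 0, and relative to its mean the largest gap between libraries of a genotype is that of Chac1 in wild type, 425 and 533.

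Atf4 (gene 11911, chr15:80255184-80257545 in GRCm38, the assembly of mm10) encodes the transcription factor of the response. It had 5065 and 4975 scaled reads in W1 and W2 and 5014 and 4800 in K1 and K2. The genotypes overlapped, since K1 lay between both wild-type libraries. The deposited log2 fold change was -0.033 ± 0.049 (SE, 2 libraries per genotype; DESeq2 adjusted p = 0.931). Its 95% interval ran from -0.13 to 0.063 (-8.56% to 4.47% in level).

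Ddit3 (gene 13198, chr10:127290793-127296291) encodes CHOP, a factor that acts with ATF4 when stress is prolonged. It had 364 and 339 scaled reads in wild type, against 368 and 382 in knockout. The libraries did not overlap, but the nearest of them were only a few reads apart. The log2 fold change of Ddit3 was 0.090 ± 0.14 (SE, DESeq2 adjusted p = 0.931) in the authors' deposited table. The 95% interval was wide, from -12.1% to 28.8% in level.

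Trib3 (gene 228775, chr2:152337425-152344060) encodes a pseudokinase that binds ATF4 and CHOP and damps them. Its scaled reads were 372 and 351 in wild type, against 417 and 431 in knockout, so both knockout libraries were higher. The deposited log2 fold change of Trib3 was 0.23 ± 0.14 (SE, the authors' DESeq2 p = 0.0966, adjusted p = 0.511). Sesn2 (gene 230784, chr4:132492804-132510456) encodes sestrin 2, which senses leucine and restrains the growth kinase mTORC1. It had 977 and 1040 scaled reads in wild type, against 1155 and 1108 in knockout, again without overlap. Its deposited log2 fold change was 0.16 ± 0.087 (SE, the authors' DESeq2 p = 0.0593, adjusted p = 0.379). Neither gene passed the test.

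Chac1 (gene 69065, chr2:119351242-119354326) encodes an enzyme that degrades glutathione and is among the most inducible ATF4 targets. It was the member with the largest spread, with 425 and 533 scaled reads in wild type, against 414 and 385 in knockout. Knockout libraries were lower than both wild-type ones, by a narrow margin against W1. The deposited log2 fold change was -0.26 ± 0.14 (SE, the authors' DESeq2 p = 0.0679, adjusted p = 0.413). Refitted without W2 it was -0.087, and without W1 it was -0.41, so its size depended on which wild-type library was used. Chac1 and Trib3, which both hold the core shown above, had fold changes of opposite sign, but neither change passed the test.

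Asns (gene 27053, chr6:7675165-7693209) encodes asparagine synthetase, whose promoter is a classic ATF4 target. Its scaled reads were 3394 and 3293 in wild type, against 3638 and 3471 in knockout. The knockout libraries were both higher, with a deposited log2 fold change of 0.088 ± 0.055 (SE, DESeq2 adjusted p = 0.558). Psat1 (gene 107272, chr19:15905123-15925059) encodes phosphoserine aminotransferase, which makes phosphoserine. It had 4455 and 4441 scaled reads in wild type, against 4572 and 4536 in knockout. Replicates of Psat1 lay very close, and the genotypes differed by a log2 fold change of only 0.034 ± 0.049 in the authors' deposited table (SE, DESeq2 adjusted p = 0.931).

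Phgdh (gene 236539, chr3:98313171-98339969) encodes phosphoglycerate dehydrogenase, which diverts a glycolytic intermediate into serine synthesis. It had 4190 and 4132 scaled reads in W1 and W2 and 4678 and 4568 in K1 and K2. Both knockout libraries were higher, and the gap between genotypes exceeded the spread within them. The deposited log2 fold change was 0.15 ± 0.050 (SE, the authors' DESeq2 p = 0.00231, adjusted p = 0.0332), a rise of 11.1% with a 95% interval of 3.82% to 18.8%. Refitted with any 1 library left out it stayed between 0.13 and 0.17, with an unadjusted p from 0.00548 (without K2) to 0.0271 (without K1). These refits keep the dispersion from all 4 libraries and leave 1 library in a genotype, which is assumed to vary like the others. They give no adjusted p. The predicted gene Gm6756, which the authors annotate as a phosphoglycerate dehydrogenase and with which reads could be shared, had a value of 69.8 in knockout against 30.01 in wild type, per the authors' deposited table. It moved in the same direction as Phgdh (log2 fold change 1.22, DESeq2 adjusted p = 0.00883), at a far lower level.

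Shmt2 (gene 108037, chr10:127517123-127522444) encodes the mitochondrial enzyme that turns serine into glycine and passes its carbon to folate. It had 3808 and 3827 scaled reads in wild type, against 3735 and 3771 in knockout. The knockout libraries were both lower, by a log2 fold change of -0.025 ± 0.052 in the authors' deposited table (SE, DESeq2 adjusted p = 0.937). Mthfd2 (gene 17768, chr6:83305704-83326011) encodes the dehydrogenase of the next step. Its scaled reads were 2048 and 1935 in wild type, against 2106 and 2022 in knockout, so the genotypes overlapped. The deposited log2 fold change of Mthfd2 was 0.051 ± 0.068 (SE, DESeq2 adjusted p = 0.931). The 95% interval was -8.36% to 5.45% for Shmt2 and -5.49% to 13.6% for Mthfd2.

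**Figure D2:**
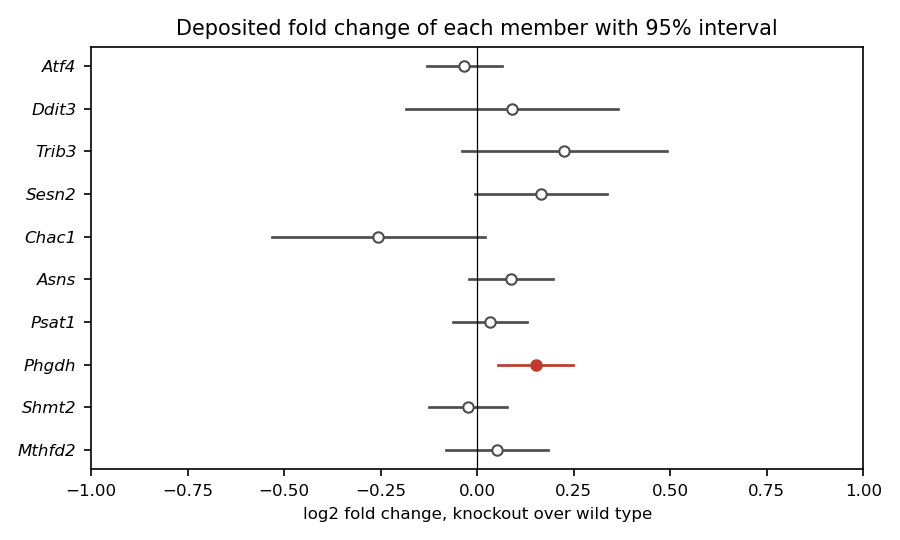
Deposited log2 fold change (horizontal axis, knockout over wild type) of the 10 members with the 95% interval from the implied standard error. The filled point is Phgdh, which passed an adjusted p of 0.05, and the intervals of the other members cross 0.

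In 6 members both knockout libraries lay above both wild-type libraries, and in 2 both lay below. These were Ddit3, Trib3, Sesn2, Asns, Psat1 and Phgdh above, and Chac1 and Shmt2 below. Of 666 reference genes in the same range of means, 26.6% were separated upward and 32.6% downward. With 2 libraries against 2, the exact two-sided permutation test of a single gene cannot go below p = 0.333. The median coefficient of variation between libraries was 3.07% in wild type and 2.81% in knockout for the members, against 3.14% and 2.45% for the reference genes.

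**Figure D3:**
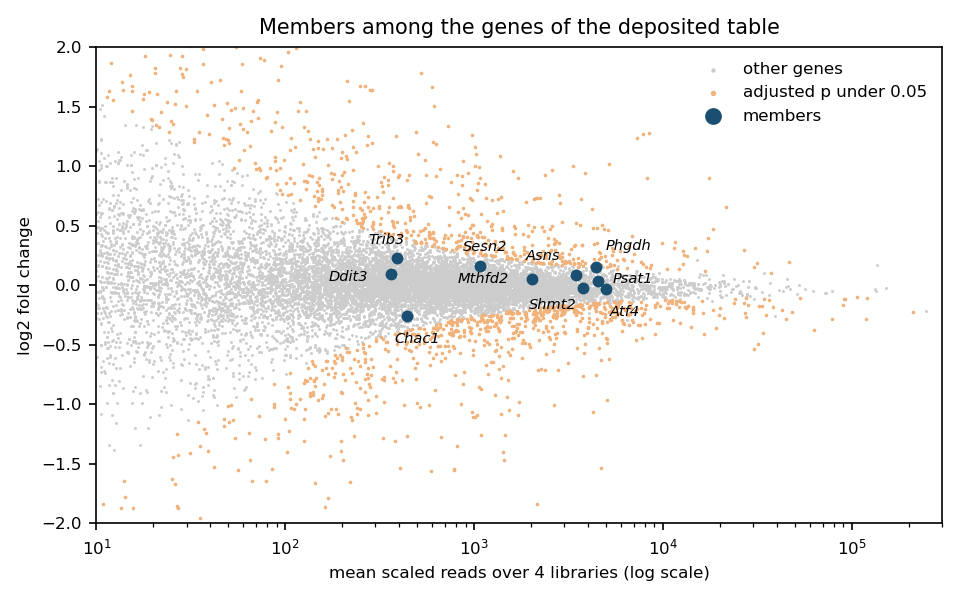
Log2 fold change against the mean of scaled reads over 4 libraries (log axis) for the genes of the authors' deposited table, with the members as large points. Genes with a mean under 10 (4407) and 46 others beyond 2 on the log2 scale are not drawn; the members lie within the band of genes that were not called or, for Phgdh, at its edge.

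Levels of different members are compared here per kilobase of the length given in the deposited table, as the mean of both genotypes. Atf4 was highest, with 3004 scaled reads per kilobase in wild type and 2937 in knockout. It stood at the 97.6th percentile of all genes. Phgdh (2224 and 2470) and Psat1 (2044 and 2093) followed, then Asns (1735 and 1844) and Shmt2 (1658 and 1630). Mthfd2 had 962 and 997 scaled reads per kilobase, Ddit3 401 and 427, and Sesn2 377 and 422. Ddit3 and Sesn2 were the neighbours in this order whose libraries overlapped: per kilobase Ddit3 ran from 386 to 435 over the 4 libraries and Sesn2 from 365 to 431. Chac1 (302 and 253) and Trib3 (177 and 206) were lowest, and Trib3 stood at the 65.7th percentile. The serine, asparagine and folate enzyme members were thus among the more abundant transcripts of both genotypes. Of the other members, Ddit3, Sesn2, Chac1 and Trib3 were lower than these enzymes, and Atf4 was higher.

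Cell type markers moved with genotype in the same libraries. The counts below stand beside 3.48% of all genes called higher and 4.30% called lower in knockout. Of 10 fibroblast markers 7 fell, led by Dcn (log2 fold change -1.06) and Col3a1 (-0.38), and Thy1 rose (1.27), and their summed deposited values went from 710606 in wild type to 642928 in knockout. Of 10 macrophage markers 8 rose, led by Lyz2 (log2 fold change 2.68), Ctss (2.39) and Cd68 (1.47). The sum of the 10 went from 666 to 1937, and Lyz2 alone went from 148 to 947. Csf1r was nearly unchanged, at 245 in wild type and 257 in knockout (log2 fold change 0.072, DESeq2 adjusted p = 0.955). Of 8 endothelial markers Esam (3.03) and Cdh5 (2.40) rose and Flt1 fell (-0.55), with sums of 712 and 1049. Of 6 epithelial markers Krt8 (-3.71) and Krt18 (-1.78) fell, with sums of 366 and 91.4. No marker was at 0 in the deposited table, but some were in the recovered reads. Emcn, an endothelial marker, had 1 read in W1, 1 in W2, 0 in K1 and 0 in K2. The endothelial marker Tie1 had 0 in K1 and W1, and the epithelial markers Krt5 and Krt14 had 0 in W1. A mean under 50 was found for 5 of the 10 macrophage, 4 of the 8 endothelial and 4 of the 6 epithelial markers. The macrophage marker Ptprc (CD45) had 3 and 3 reads in wild type, against 21 and 16 in knockout, and it was not called (DESeq2 adjusted p = 0.0640). Ptprc was chosen outside the rule for named genes, as a defining marker of blood cells. Csf1r, Emcn, Tie1, Krt5 and Krt14 were also named outside it, after their values were seen. The part of other cells in the results here was not tested. In bulk RNA, fewer cells of a type and less RNA per cell cannot be told apart.

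In the 9 wider lists, which hold 145 genes beside the members, 10 genes rose and 9 fell, beside the 7.78% called over all genes and the 11.0% at the means of the members. That share is near this background. None of the upstream genes passed the test. A list of 18 genes held those for eIF2, its kinases and phosphatase subunits and the exchange factor eIF2B. It also held Gcn1, Impact, Dele1 and Oma1. None of the 18 was called by DESeq2, against 1 at an unadjusted p under 0.05. That gene was Eif2s3x, an eIF2 subunit, with a log2 fold change of -0.13 (adjusted p = 0.0989) in the authors' deposited table. For these 18 genes the median log2 fold change was 0.00017. Of 10 genes for ATF4's partners and regulators 1 fell, and this was Trib2, a pseudokinase related to Trib3. It had 871 and 874 scaled reads in wild type, against 658 and 649 in knockout (deposited log2 fold change -0.41, DESeq2 adjusted p = 7.81e-04). Trib2 and Trib3 thus had fold changes of opposite sign, of which only that of Trib2 passed the test.

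Several other targets of ATF4 rose, amino acid transporters among them. Of 31 such genes 9 rose and 2 fell, and their median log2 fold change was 0.15. At an unadjusted p under 0.05 the counts were 15 and 4. Over all genes 3.48% were higher, 4.30% were lower and the median was 0.0036. Among genes at the means of the members 11.0% were called in either direction. This list was chosen with earlier results of these data known. It holds Cars and Nars, which rose, and no other cytosolic tRNA synthetase gene, so its counts may partly reflect that choice. The largest change was in Slc7a11, the cystine importer, which is also a target of the oxidative stress factor NRF2. It had 341 and 369 scaled reads in wild type, against 724 and 760 in knockout, a deposited log2 fold change of 1.05 ± 0.12 (SE, DESeq2 adjusted p = 1.57e-16). Slc1a4, a transporter of alanine, serine and cysteine, had 957 and 984 scaled reads in wild type, against 1275 and 1292 in knockout (deposited log2 fold change 0.40, DESeq2 adjusted p = 5.87e-05). Slc38a2, a glutamine and alanine transporter that amino acid starvation induces, fell from 8214 to 6528 in the authors' deposited table (log2 fold change -0.33, DESeq2 adjusted p = 3.73e-13). Transporters of this list thus went both ways.

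The remaining called genes of that list were named after their values were seen. Those that rose were the transporter genes Slc3a2 (log2 fold change 0.22), Slc7a5 (0.20) and Slc6a9 (0.40), the alanine aminotransferase gene Gpt2 (0.39), the translation inhibitor gene Eif4ebp1 (0.18) and the tRNA synthetase genes Cars (0.26) and Nars (0.15) in the authors' deposited table. Slc3a2 and Slc7a5 encode the subunits of the LAT1 importer of large neutral amino acids. Herpud1, an ER degradation gene, fell (-0.28). In the authors' deposited table Slc7a11 was the 1 called gene of the wider lists with a change of at least 2-fold.

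The promoter of Slc7a11 held the core on both strands, at -66 to -59 and at -47 to -40. It is shown from position -100 to -1 at chr3:50443614-50443713 (minus strand, GRCm38.p6), with the cores in capitals, because this gene had the largest change of the wider pathway.
Slc7a11: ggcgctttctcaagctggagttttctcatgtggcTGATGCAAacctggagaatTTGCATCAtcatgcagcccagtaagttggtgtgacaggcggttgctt
Of the other ATF4 targets with a RefSeq promoter 8 of 23 held the core, and of the tRNA synthetase genes 5 of 13. Over all genes of the table with a promoter, 3.37% of the 416 with the core rose and 3.61% fell, against 3.22% and 4.16% of the 13205 without it. Among the members and wider pathway genes with a matched promoter, 3 of 20 with the core rose (Aars, Slc1a4 and Slc7a11) and 1 fell (Herpud1). Of the 107 without it 4 rose and 8 fell. Genes without a matched promoter are left out of this split, and some genes that rose are among them.

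Of 20 cytosolic tRNA synthetase genes 3 rose and none fell, with a median log2 fold change of 0.051. Since 11.0% of genes at the means of the members were called, this count is near the background, and Cars and Nars also stand among the ATF4 targets above. The genes that rose were Cars, Nars and Aars, the synthetases for cysteine, asparagine and alanine. Cars had 2168 and 1970 scaled reads in wild type, against 2525 and 2419 in knockout (deposited log2 fold change 0.26, DESeq2 adjusted p = 0.00375). Aars had a knockout value of 6767 against 6137 in the authors' deposited table (log2 fold change 0.14, DESeq2 adjusted p = 0.0281).

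Of 24 other genes for serine, glycine and folate enzymes none rose and 1 fell, with a median log2 fold change of 0.015. Psph, chosen after its values were seen, encodes the last enzyme of serine synthesis and had a log2 fold change of 0.18 (DESeq2 adjusted p = 0.606) in the authors' deposited table. The gene that fell was Gcsh, a subunit of the glycine cleavage system, from 714 to 450 (log2 fold change -0.67, DESeq2 adjusted p = 4.83e-07). The predicted copy Gm9199 was higher in knockout, with 209 against 90.3, in the authors' deposited table. Whether the authors' counting split reads between them was not tested. Summed over both genes the value was still lower in knockout, 659 against 804.

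Several ER chaperone genes fell. Of 22 genes for ER chaperones and folding, ER degradation and the ATF6 and IRE1 arms, 5 fell and none rose. Over all genes 4.30% fell and 3.48% rose, and among genes at the means of the members 11.0% were called in either direction. Hspa5, Hsp90b1 and Calr had means above that range, where no share was computed. Of the 22, 21 had a negative fold change, and the median log2 fold change was -0.081. The 1 positive gene was Ern1, which encodes IRE1 (log2 fold change 0.28, DESeq2 adjusted p = 0.266). Ern1 was named after its values were seen. Hspa5, which encodes the chaperone BiP, fell from 21397 to 18725 as the authors' deposited table gives it (log2 fold change -0.19, DESeq2 adjusted p = 1.50e-05). Hsp90b1, the ER form of HSP90, fell by 0.17 on the log2 scale (DESeq2 adjusted p = 3.20e-05). Dnajc3, which inhibits the eIF2 kinases PKR and PERK, had 2969 and 3020 scaled reads in wild type, against 2482 and 2517 in knockout (deposited log2 fold change -0.26, DESeq2 adjusted p = 2.30e-04). Pdia4 (-0.18) and Calr (-0.11), a disulfide isomerase and the chaperone calreticulin, were the other 2 that fell in the authors' deposited table.

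The ER stress element, to which ATF6 binds with NF-Y, was present in 9 of 19 promoters of this list, and the C/EBP-ATF core in 0. Among the 23 genes of the table with the element in any promoter, 5 fell and none rose, against 4.11% and 3.23% of the 13598 without it. Of these 23 genes, 9 are members of the ER list, so the counts are not independent of it. Hspa5 is shown from position -100 to -1 at chr2:34771990-34772089 (plus strand, GRCm38.p6), with the element in capitals, as the list's gene with the smallest adjusted p.
Hspa5: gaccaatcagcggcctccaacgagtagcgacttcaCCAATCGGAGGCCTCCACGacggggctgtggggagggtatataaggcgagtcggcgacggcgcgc

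**Figure D4:**
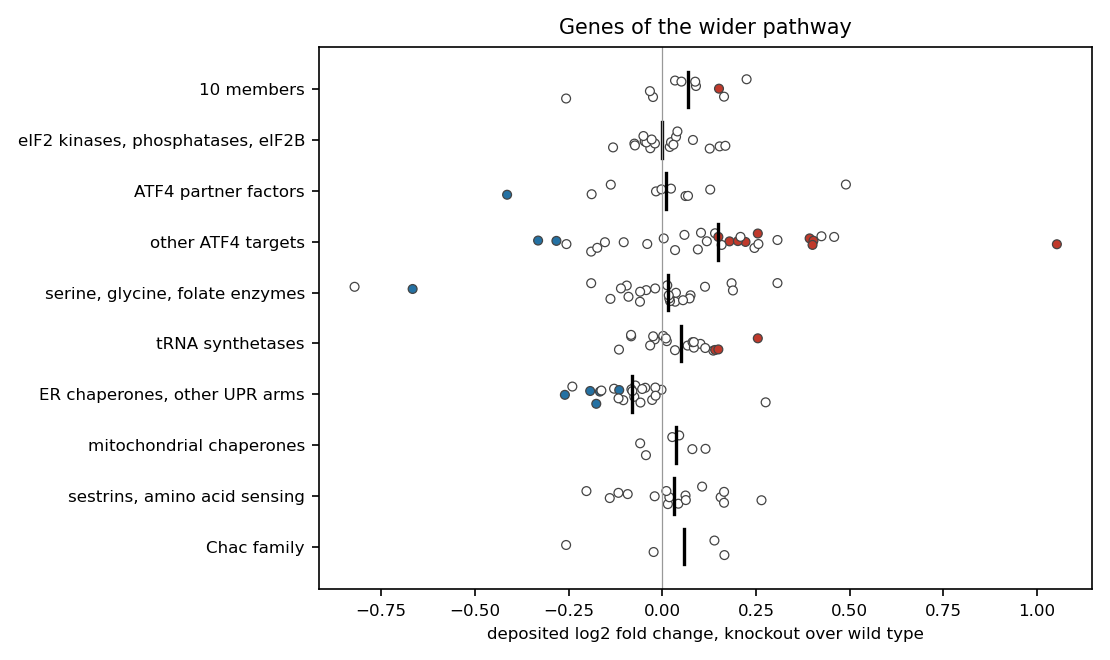
Deposited log2 fold change (horizontal axis) of each gene of the wider pathway, by list, with filled points for genes past an adjusted p of 0.05 (red higher, blue lower in knockout) and a bar at the median. Among other ATF4 targets 9 filled points lie to the right, with Slc7a11 at 1.05 as the farthest, and 2 to the left (Slc38a2 and Herpud1), while the 3 of the tRNA synthetases lie to the right and the 5 of the ER chaperones to the left.

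Other lists held no called gene. Of 6 mitochondrial stress chaperones none was called by DESeq2 and 0 had an unadjusted p under 0.05, with Hspa9 (mortalin) closest at a log2 fold change of 0.045 (p = 0.234) in the authors' deposited table. Of 16 genes of the sestrin family and of amino acid sensing at mTORC1 none was called and 0 had an unadjusted p under 0.05, the smallest being that of Sesn2 given above. Of the 4 genes Chac1, Chac2, Ggct and Ggact none was called and 0 had an unadjusted p under 0.05. Whether the responses of these lists differ from one another was not tested.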

How the data were processed

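The single file used is the authors' table of gene differences between control and knockout. The authors deposited 2 expression columns, a read signal scaled for depth with 1 value per genotype. Their log2 ratio equals the deposited log2 fold change to within 9.13e-09. Both columns thus carry the pull toward 0: Cbx2 in knockout was 29.0 there, against a mean of 25.2 scaled reads. The authors also deposited p-values, raw and adjusted, and the adjusted ones equal a Benjamini-Hochberg adjustment over 17441 genes to within 1.33e-06. The submitters' processing notes name the tools RSEM, DESeq2, Bowtie2 and HISAT2 and the build mm10. What each did, its version and any filter are not given here.

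The mean of both columns is a sum of reads divided by size factors: 1365 genes with a mean under 0.6 take 14 distinct means. All 4822 genes with a sum of scaled reads under 60 gave exactly 1 set of whole reads in 4 libraries. The authors' DESeq2 test, with a normal prior on the fold change (variance 0.590, from 200 genes), was rebuilt in Python, and gives the deposited fold change from the reads and the deposited p. The same model, with each gene's dispersion kept, was refitted to the members' reads with 1 library left out. For the 10 members exactly 1 set of whole reads matched the mean within rounding and the log2 fold change within 1e-06. The distance was at most 5.11e-10, and the next best set was at least 1.47e-06 away. In all, 161 of 170 genes of the lists and 666 of 675 reference genes (every 10th gene with a mean in the members' range) were recovered. The other 20 list genes had means above 6000 and were not tried. Which recovered library is which replicate could not be told. The step was tested on simulated data.

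Genes were called at a deposited adjusted p under 0.05. The 95% intervals are the deposited log2 fold change with the standard error implied by its p. No edgeR test was run, since reads were not recovered for all genes. The members and lists were chosen with earlier results of these data known. Genes were named by a rule: all members, in each list up to 3 called genes, by adjusted p, or else the gene with the smallest p. Promoters were matched by gene identifier to RefSeq (GRCm38.p6), and all 10 members had one. Alternatives changed the threshold, a 2-fold minimum, the genes in the adjustment, Bonferroni adjustment, centring, a pseudocount of 1, added spread of 10% and 20%, and libraries left out. Python 3.11.15, numpy 2.4.6 and scipy 1.17.1 were used.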

Additional observations from a re-analysis of the deposited data

How the results depend on the processing

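Among the members 1 gene, Phgdh, was called in the authors' deposited table. With an adjusted p under 0.01, the authors' 2-fold minimum, Bonferroni adjustment, and 10% or 20% added spread per library, 0 were called, and Phgdh was still called with p adjusted over genes at or above the median mean and with centring. Over all genes 1357 were called, against 294 with the 2-fold minimum, 548 with Bonferroni adjustment, and 425 and 125 with 10% and 20% added spread. In the wider lists 19 genes were called, against 1 (Slc7a11) with the 2-fold minimum, 6 with Bonferroni adjustment, 2 (Gcsh and Slc7a11) with 10% added spread and 0 with 20%. Counts under the other settings were within 1.5 times the main ones. The added spread exceeds the median variation measured between libraries. Centring moves fold changes by 0.0085 and no member's sign. With each library left out in turn, a setting added after the data were seen, all 10 members kept their sign. For the 6 members separated upward and the 2 separated downward this outcome was fixed in advance. Of the others, Atf4 was at -0.0018 without K2 and Mthfd2 at 0.011 without W2. Calls could not be recomputed in that setting, since reads of all genes were not recovered. No paired analysis was possible because the table holds 1 value per genotype and the recovered libraries carry no replicate number. About 400 reads per library (Ddit3, Trib3, Chac1) give standard errors near 0.14, so small changes were not detectable there.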
